A study of Mus musculus with 12 samples.

Results

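The immunity-related GTPases (IRGs) examined here are Irgm1, Irgm2, Igtp, Iigp1, Tgtp1, Tgtp2 and Ifi47, 7 of the 55401 genes in each of the 2 deposited count tables. They were chosen by symbol, each symbol stood on 1 row of each table, and all 7 had enough counts to be tested in both tables. Bulk RNA-seq was performed on tumor-associated macrophages (TAMs), sorted as CD45+CD11b+Ly6C-Ly6G-F4/80+ cells from subcutaneous B16-F10 tumors, a mouse melanoma line, in C57BL/6 mice. The first comparison, of 3 AMPK-KO samples with 3 WT samples taken on day 15, asked what loss of the energy-sensing kinase AMPK does to TAMs, and the second, of 3 late-stage samples from day 15 with 3 early-stage samples from day 8, asked what changes as the tumor grows. The AMPK-KO mice were AMPKfl/flLyz2cre/cre. In them Cre is driven from the lysozyme gene Lyz2 of myeloid cells, so that deletion is not limited to TAMs. The WT mice of that comparison were labelled AMPKfl/fl, a label that names no Cre. Both of these groups therefore carried floxed alleles, while the early-stage and late-stage mice were labelled WT. The genotype fields of AMPK-KO replicates 2 and 3 read Lyz3cre/cre and Lyz4cre/cre, whereas their titles read Lyz2cre/cre. All samples were labelled untreated ("Non"), and the methods give mice of 5 weeks.

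Total counts ranged from 71019494 to 84470374 per sample. Prkaa1, which encodes the AMPK α1 catalytic subunit, had 4959, 4535 and 5165 counts in the WT samples and 3467, 3285 and 3297 counts in the AMPK-KO samples, a change of -0.60 on the log2 scale (SE 0.07, edgeR quasi-likelihood test, adjusted p = 2.3e-04). The macrophage marker Lyz2 was low in both genotypes of the first table, where WT samples held 671 to 975 of its reads and AMPK-KO samples 676 to 1088, against 204851 to 249165 in the early-stage and 88212 to 93224 in the late-stage samples. The other macrophage markers were abundant, and the 12 listed ones summed to between 14707 and 20190 CPM (counts scaled to library size) in each sample. The methods describe female mice. Yet 4 genes of the Y chromosome (Uty, Kdm5d, Ddx3y and Eif2s3y) summed to between 9229 and 12183 counts in WT and AMPK-KO samples and 3435 to 4035 in the early-stage samples, against 0 to 4 in the late-stage samples, so that tumor stage and the sex of the mice cannot be told apart.

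IRGs are GTPases that interferon-γ induces, and in mouse macrophages they attack the vacuoles in which intracellular parasites and bacteria live. The effector proteins carry a lysine in the nucleotide-binding P-loop (GKS type) and assemble on the vacuole membrane. The regulatory proteins carry a methionine at that place (GMS type), sit on the cell's own membranes and hold the effectors in their inactive state there. Irgm1, Irgm2 and Igtp are GMS regulators. Iigp1, Tgtp1, Tgtp2 and Ifi47 are GKS effectors.

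The P-loop is where the classes differ, so its coding bases are shown for the members on chromosome 11. Each stretch of 24 bases was read from the coding exon of the GENCODE M21 transcript, in transcript direction, with the deciding codon in capitals.
Igtp: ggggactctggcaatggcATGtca
Irgm1: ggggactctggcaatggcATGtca
Irgm2: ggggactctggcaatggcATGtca
Tgtp1: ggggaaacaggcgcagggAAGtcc
Tgtp2: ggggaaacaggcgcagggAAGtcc
Ifi47: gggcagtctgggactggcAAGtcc
On GRCm38 these lie at chr11:58206275-58206298 on the plus strand for Igtp, chr11:48866761-48866784 on the minus strand for Irgm1 and chr11:58219695-58219718 on the plus strand for Irgm2. Those of the effectors lie at chr11:48987667-48987690 on the minus strand for Tgtp1, chr11:49059534-49059557 on the minus strand for Tgtp2 and chr11:49095648-49095671 on the plus strand for Ifi47. The 3 regulators share 1 stretch letter for letter, with ATG (methionine), and begin it at codon 91 in Igtp and codon 83 in Irgm1 and Irgm2. Tgtp1 and Tgtp2 share theirs, with AAG (lysine), and begin it at codon 63, and Ifi47 has AAG in a stretch of its own that begins at codon 81.

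The promoters were examined because the members moved together in the comparisons below. RefSeq windows of 250 bases upstream of the start site (GRCm38.p6) matched 6 of the 7 members, those on chromosome 11, by symbol. Both strands were searched for the interferon-γ-activated site TTCNNNGAA (GAS) and for the core of the interferon-stimulated response element, GAAANNGAAA (ISRE core). The stretches of 30 bases that hold them are shown in gene direction, with the motif matches in capitals.
Igtp: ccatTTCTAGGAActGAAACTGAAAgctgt
Irgm2: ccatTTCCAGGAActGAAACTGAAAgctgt
Tgtp1: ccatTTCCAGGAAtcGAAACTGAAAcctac
Tgtp2: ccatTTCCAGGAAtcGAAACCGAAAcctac
Irgm1: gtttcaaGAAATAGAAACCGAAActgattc
They lie 49 to 20 bases upstream of the start of Igtp (chr11:58199507-58199536), 79 to 50 of Irgm2 (chr11:58214898-58214927), 92 to 63 of Tgtp1 (chr11:48992309-48992338, minus strand), 85 to 56 of Tgtp2 (chr11:49064268-49064297, minus strand) and 37 to 8 of Irgm1 (chr11:48871428-48871457, minus strand). In Igtp, Irgm2, Tgtp1 and Tgtp2 the GAS stands 2 bases before the ISRE core, whereas Irgm1 held overlapping ISRE cores and no GAS, and Ifi47 held neither motif in its window. A GAS occurred in 7.02% of 32851 promoter windows and in 4 of the 6 member windows, an ISRE core in 2.98% of all windows and in 5 of the 6, and both in 0.332% of all windows and in 4 of the 6. The stretches of Tgtp1 and Tgtp2 are nearly alike, as are those of Igtp and Irgm2, so these windows are not independent. The arrangement TTCNNNGAANNGAAANNGAAA, which was written down after the member sequences had been read, occurred in 5 windows of the table, those of Igtp, Irgm2, Tgtp1, Tgtp2 and Gm12185, a further gene of the IRG family. These matches are letters in a window, and binding was not measured.

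As genes, 6 of the 7 lie on chromosome 11 of GRCm38. Irgm1 (ENSMUSG00000046879.7) spans chr11:48861968-48871683, Tgtp1 (ENSMUSG00000078922.9) chr11:48985327-48994172 and Tgtp2 (ENSMUSG00000078921.3) chr11:49057194-49064206, all on the minus strand. Ifi47 (ENSMUSG00000078920.3) spans chr11:49076587-49096974, Igtp (ENSMUSG00000078853.8) chr11:58199556-58207591 and Irgm2 (ENSMUSG00000069874.7) chr11:58199618-58222782, all on the plus strand. Iigp1 (ENSMUSG00000054072.12) is on the plus strand of chromosome 18, at chr18:60376027-60392634, and has no entry in the RefSeq promoter table. The spans are those of GENCODE M21, whereas the promoter windows were taken from RefSeq starts. The promoter stretches of Irgm1, Irgm2 and Tgtp1 shown above lie inside these spans. Tgtp1 and Tgtp2 are close copies: 83.3% of the 100-base stretches of the Tgtp1 transcript and 80.4% of those of Tgtp2 also occur in each other's or in Gm12185 transcripts. How reads that fit several genes were counted is not given in the sources used here, so the split between these copies is uncertain. Igtp and Irgm2 overlap on the same strand and share 8.01% of the exon bases of Igtp, and Ifi47 shares 8.77% of its exon bases with Olfr56 and Gm12188.

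In AMPK-KO TAMs all 7 IRGs were higher than in WT TAMs, by 1.433-fold (Irgm1) to 2.2-fold (Tgtp1). All 7 passed the edgeR quasi-likelihood test at an adjusted p under 0.05, where 11.3% of the 17532 genes tested passed as higher and 9.78% as lower. For all 7 the lowest AMPK-KO sample stood above the highest WT sample, where 18.8% of genes did so. Summed over the members, the level was 702.6, 679.4 and 673.6 CPM in the WT samples and 1287, 1218 and 1221 CPM in the AMPK-KO samples, 1.813-fold higher. In bulk samples like these, fewer cells of a type and less RNA per cell cannot be told apart.

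**Figure D1:**
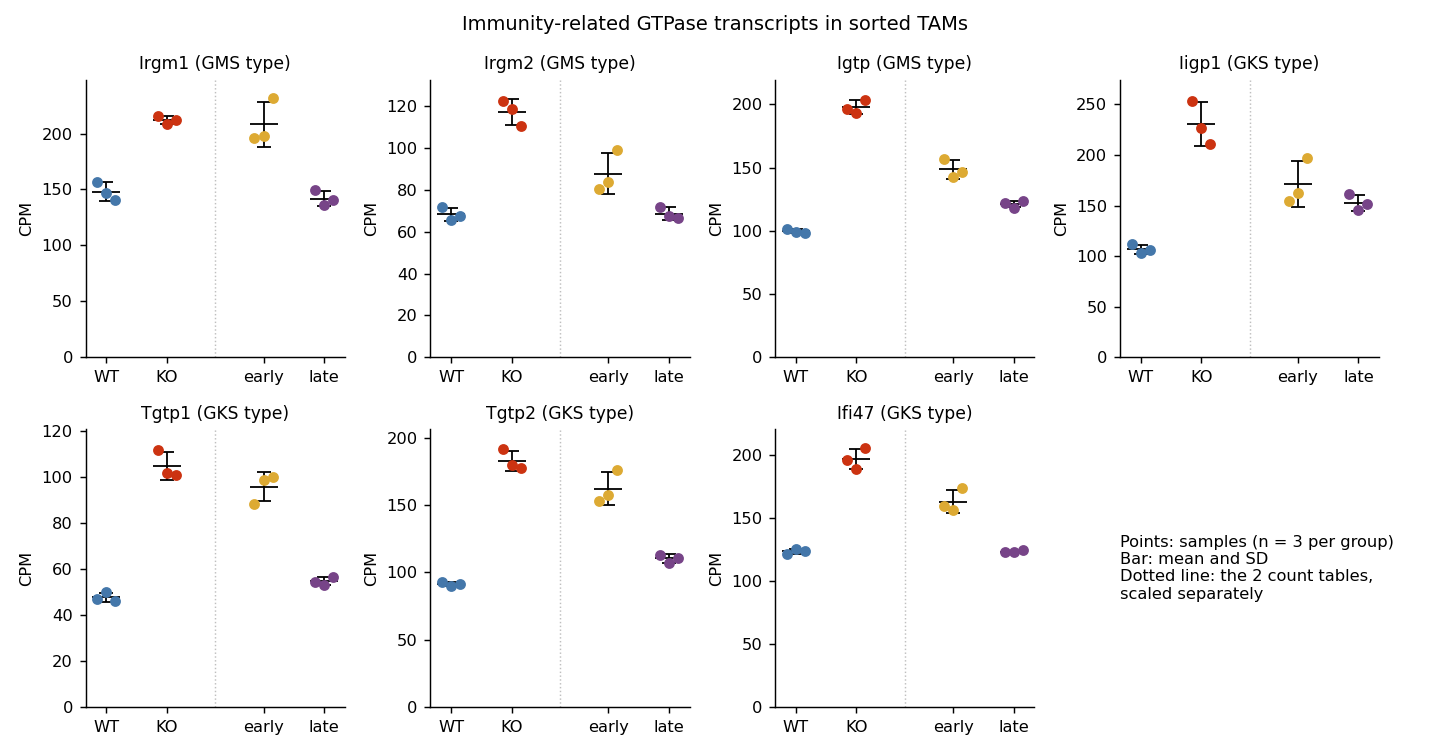
Expression of the 7 IRGs in CPM (vertical axis from 0) in each of the 12 samples (points) with the mean and SD of each group of 3 (bars), the 2 count tables being scaled separately. Every AMPK-KO sample is above every WT sample for each gene, and late-stage samples are below early-stage samples for each gene except Iigp1, where 154.8 CPM in an early-stage sample is below 161 CPM in a late-stage sample.

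Among the regulators, Irgm1, which also acts in autophagy and in the survival of lymphocytes and macrophages during infection, was at 157, 146.5 and 140.4 CPM in the WT samples and at 215.8, 208.4 and 211.8 CPM in the AMPK-KO samples. The groups were well apart, and the means rose from 148 ± 8.412 to 212 ± 3.69 CPM (SD, n = 3), a log2 fold change of 0.52 (SE 0.05, 95% interval 0.40 to 0.64, adjusted p = 7.2e-05 by edgeR). This was the smallest change among the members. Irgm2, its close relative on Golgi and other membranes, was at 71.77, 65.51 and 67.75 CPM in the WT samples and at 122.6, 118.7 and 110.5 CPM in the AMPK-KO samples. Its log2 fold change was 0.78 (SE 0.06, 95% interval 0.64 to 0.91, adjusted p = 1.1e-05 by edgeR), above that of Irgm1, a difference that was not tested. Igtp, also called Irgm3, an endoplasmic reticulum protein, was at 101.4, 99.38 and 98.63 CPM in the WT samples and at 196.2, 192.9 and 203.8 CPM in the AMPK-KO samples. It changed most among the regulators, from a tight WT group, with a log2 fold change of 0.99 (SE 0.05, 95% interval 0.88 to 1.09, adjusted p = 5.1e-07 by edgeR).

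Among the effectors, Iigp1 (Irga6), the GTPase whose oligomers coat parasite vacuoles, was at 111.5, 102.6 and 105.6 CPM in the WT samples and at 253.8, 227 and 211.3 CPM in the AMPK-KO samples. The AMPK-KO samples spread more for Iigp1 than for the other members (SD 21.48 CPM around a mean of 230.7), and the lowest of them was still above all WT samples. Its log2 fold change was 1.11 (SE 0.07, 95% interval 0.96 to 1.27, adjusted p = 2.4e-06 by edgeR). Tgtp1, a copy of the effector Irgb6, was at 46.98, 49.97 and 46.2 CPM in the WT samples and at 111.8, 102.1 and 101 CPM in the AMPK-KO samples. Its groups did not overlap, and the log2 fold change was 1.14 (SE 0.06, 95% interval 1.00 to 1.27, adjusted p = 9.9e-07 by edgeR), close to that of Iigp1. The order of Tgtp1 and Iigp1 turned without WT replicate 1 or AMPK-KO replicate 3, and their difference was not tested. Tgtp2, the other Irgb6 copy, was at 92.62, 90.25 and 91.23 CPM in the WT samples and at 191.4, 180 and 177.4 CPM in the AMPK-KO samples. The WT samples were nearly level, and the log2 fold change was 1.00 (SE 0.05, 95% interval 0.89 to 1.11, adjusted p = 6.6e-07 by edgeR). With the counts of both Irgb6 copies added before the fit, the log2 fold change was 1.05 (adjusted p = 4.3e-07 by edgeR). Adding removes the uncertain split between the copies. It does not restore shared reads if these were left uncounted or were counted for Gm12185. Ifi47 (Irgd) was at 121.4, 125.2 and 123.8 CPM in the WT samples and at 195.7, 189 and 205.4 CPM in the AMPK-KO samples. It changed least among the effectors, by a log2 fold change of 0.67 (SE 0.05, 95% interval 0.56 to 0.78, adjusted p = 7.8e-06 by edgeR). Iigp1, Tgtp1 and Tgtp2 passed the stricter rule of an adjusted p under 0.05 and a log2 fold change above 1, 3 of the 7 against 2.05% of all genes, with Tgtp2 just above and Igtp just below that line. Leaving out 1 library at a time moved this count between 2 and 4.

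The late-stage samples went the other way. In them 6 of the 7 IRGs were lower than in early-stage samples and 1, Iigp1, did not pass the test, where 4.88% of the 17630 genes tested passed as lower and 4.31% as higher. The same 6 had every late-stage sample below every early-stage sample, where 15.6% of genes did so. The members summed to 989.3, 998.6 and 1124 CPM in the early-stage samples and to 794.8, 750.1 and 773.4 CPM in the late-stage samples, a ratio of 0.745. Early-stage replicate 3 was above its group mean for 6 of the 7 members, by 0.115 log2 units on average over all 7, and late-stage replicate 2 was below its group mean for all 7.

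Irgm1 was at 195.7, 197.9 and 231.5 CPM in the early-stage samples and at 149.2, 135.7 and 140.4 CPM in the late-stage samples. It fell most among the regulators, with a log2 fold change of -0.56 (SE 0.08, 95% interval -0.75 to -0.37, adjusted p = 3.4e-03 by edgeR). Irgm2 was at 80.64, 83.87 and 98.92 CPM in the early-stage samples and at 72.04, 67.47 and 66.54 CPM in the late-stage samples. Its groups lay close to each other without overlap, and the log2 fold change was -0.35 with SE 0.09 (adjusted p = 0.0404 by edgeR). Igtp was at 157.2, 142.6 and 146.6 CPM in the early-stage samples and at 122.2, 118.3 and 123.2 CPM in the late-stage samples. Its log2 fold change was -0.30 with SE 0.07 (adjusted p = 0.0279 by edgeR), the smallest that passed. The calls of Irgm2 and Igtp were lost (adjusted p of 0.0735 to 0.163) when early-stage replicate 2 or any 1 of the late-stage samples was left out, which left 4 members called, and 3 without late-stage replicate 2.

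Iigp1 was at 154.8, 162.1 and 196.7 CPM in the early-stage samples and at 161, 145.8 and 151.5 CPM in the late-stage samples. These groups overlapped, and the log2 fold change was -0.16 (SE 0.10, 95% interval -0.38 to 0.05, adjusted p = 0.338 by edgeR), which leaves room for a fall of the size seen in Igtp. Tgtp1 was at 88.57, 98.82 and 100.3 CPM in the early-stage samples and at 54.45, 53.14 and 56.72 CPM in the late-stage samples. This was the largest fall of the 7, a log2 fold change of -0.81 with SE 0.08 (adjusted p = 2.7e-04 by edgeR). Tgtp2 was at 153.4, 157.3 and 176 CPM in the early-stage samples and at 113.1, 107.1 and 110.9 CPM in the late-stage samples. It fell by 0.56 on the log2 scale (SE 0.08, adjusted p = 1.9e-03 by edgeR), and both Irgb6 copies summed fell by 0.64 (adjusted p = 6.5e-04 by edgeR). Ifi47 was at 159, 156 and 173.7 CPM in the early-stage samples and at 122.9, 122.7 and 124.1 CPM in the late-stage samples. The late-stage values were almost level (SD 0.7966 CPM), and the log2 fold change was -0.40 with SE 0.07 (adjusted p = 7.0e-03 by edgeR), a call that was lost without late-stage replicate 2 (adjusted p = 0.0569). No member changed by a log2 fold change above 1 in size between the stages, where 1.26% of genes passed as lower by that rule.

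**Figure D2:**
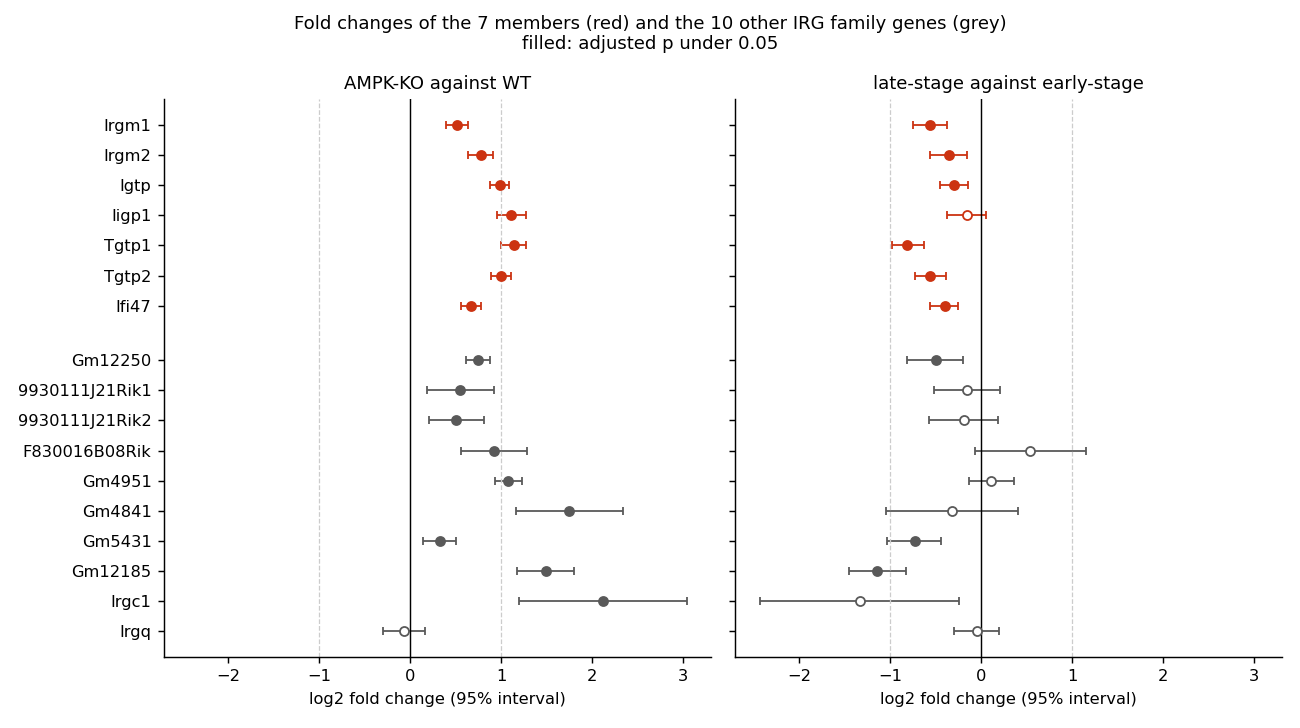
Log2 fold changes (horizontal axis) with 95% intervals for the 7 members (red) and the 10 other IRG family genes (grey), AMPK-KO against WT on the left and late-stage against early-stage on the right, filled where the adjusted p was under 0.05. On the left only Irgq, at -0.07, lies below 0, whereas on the right all 7 members lie below 0 and Iigp1, at -0.16, has an interval that reaches above it.

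Because the regulators control the state of the effectors, the ratio of their transcripts was computed within each sample, after the values had been seen. Effector activity was not measured. The summed CPM of the 4 effectors divided by that of the 3 regulators was 1.128, 1.182 and 1.196 in the WT samples and 1.408, 1.342 and 1.322 in the AMPK-KO samples. These ranges did not overlap, and the ratio was 1.161-fold higher in AMPK-KO TAMs (two-sided exact permutation p = 0.1, the smallest that 3 samples against 3 can give). The log2 fold changes of single members did not separate by class, with the effector Ifi47 (0.67) below the regulators Irgm2 (0.78) and Igtp (0.99). Between the stages the ratio was level, at 1.33 ± 0.04188 in the early-stage and 1.33 ± 0.01484 in the late-stage samples (SD, n = 3, exact permutation p = 1). Within the effectors, Iigp1 divided by the sum of both Irgb6 copies was 0.6399, 0.633 and 0.7121 in the early-stage samples and 0.961, 0.9097 and 0.9039 in the late-stage samples. It was 1.398-fold higher in the late-stage samples without overlap (exact permutation p = 0.1, again the smallest possible). In the other comparison this ratio was 0.766 ± 0.03356 in the WT and 0.8002 ± 0.03923 in the AMPK-KO samples, with overlapping values (SD, n = 3, exact permutation p = 0.4). Tgtp2 divided by Tgtp1 had means of 1.918 in WT, 1.744 in AMPK-KO, 1.693 in early-stage and 2.016 in late-stage samples, and within each table the groups did not overlap (exact permutation p = 0.1 for both), subject to the uncertain split of shared reads.

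**Figure D3:**
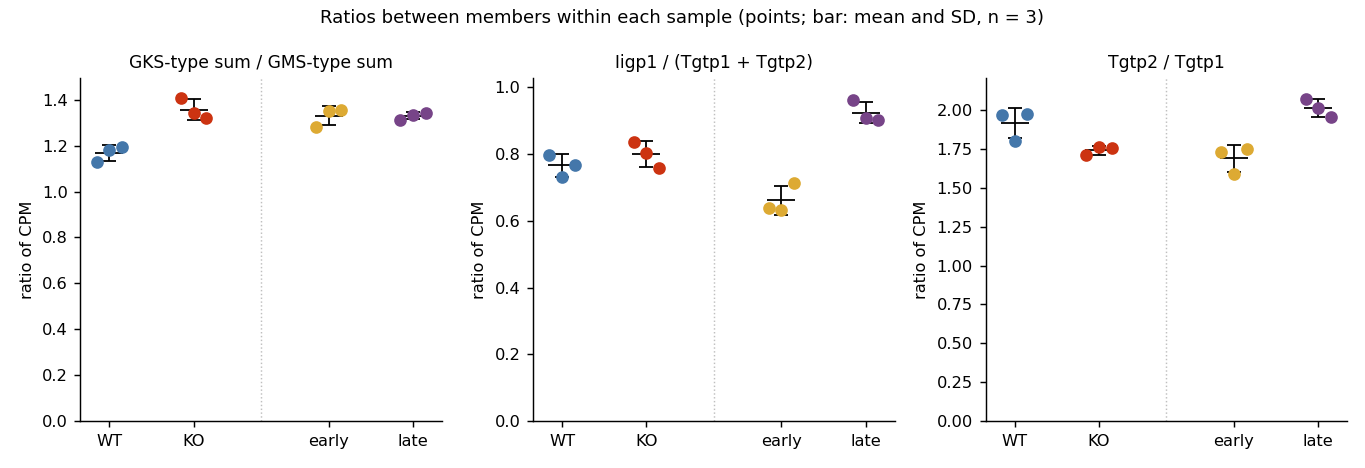
Ratios of CPM between members within each sample (points, with mean and SD of 3 samples per group, vertical axes from 0). The ratio of GKS-type to GMS-type transcripts is higher in the AMPK-KO than in the WT samples and level between the stages, and Iigp1 over both Irgb6 copies is 0.6617 on average in early-stage and 0.9249 in late-stage samples.

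To compare levels between genes, CPM was divided by the length of all exons of a gene in kilobases. On this scale Ifi47 (49.92 ± 0.7766 CPM per kilobase) and Igtp (49.35 ± 0.6952) were highest in the WT samples and did not differ beyond their spread (SD, n = 3). Next came Tgtp2 (31.1 ± 0.4053) and Irgm1 (25.47 ± 1.448), then Irgm2 (18.52 ± 0.8603) and Iigp1 (18.3 ± 0.7778), which were within their spread of each other, and last Tgtp1 (14.89 ± 0.6204). In the AMPK-KO samples Igtp led with 97.74 ± 2.759 CPM per kilobase, ahead of Ifi47 (79.54 ± 3.35) and Tgtp2 (62.27 ± 2.53). Iigp1 came next, at 39.62 ± 3.689, within its spread of Irgm1 (36.49 ± 0.6351), followed by Tgtp1 (32.75 ± 1.852) and Irgm2 (31.78 ± 1.679), also within their spread. The early-stage order was Igtp (73.6 ± 3.749), Ifi47 (65.87 ± 3.846), Tgtp2 (55.21 ± 4.105), Irgm1 (35.87 ± 3.449), Tgtp1 (29.92 ± 1.995), Iigp1 (29.4 ± 3.845) and Irgm2 (23.8 ± 2.645), where the samples of Iigp1 overlapped with those of Irgm1, of Tgtp1 and of Irgm2. The late-stage order was Igtp (59.95 ± 1.28), Ifi47 (49.83 ± 0.3221), Tgtp2 (37.56 ± 1.032), Iigp1 (26.23 ± 1.321), Irgm1 (24.4 ± 1.185), Irgm2 (18.61 ± 0.7971) and Tgtp1 (17.09 ± 0.5645), with overlap between Iigp1 and Irgm1. The places of Tgtp1 and Tgtp2 are subject to the uncertain counting of shared reads. The order also depends on the length used. Irgm1 and Iigp1 have 5810 and 5823 exon bases but longest coding transcripts of 2259 and 3121 bases, and with the latter, an alternative chosen after the data were seen, Irgm1 rose to 65.51 ± 3.724 CPM per kilobase and the second place in the WT samples, behind Ifi47 (69.63 ± 1.083), and Iigp1 held the same place in the WT and the AMPK-KO samples.

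The family holds 10 further genes in the annotation. In AMPK-KO TAMs 9 of them were higher and 1 did not pass, with a median log2 fold change of 0.84, beside 0.99 for the members and -0.00 for all genes tested. Of all genes tested, 11.3% passed as higher. Gm12250, which encodes the effector Irgb10 although GENCODE M21 lists it as a processed pseudogene, rose from 38.15 ± 1.156 to 64.27 ± 2.132 CPM (0.75 on the log2 scale, adjusted p = 1.1e-05 by edgeR). Gm4951, a neighbor of Iigp1, rose from 22.42 ± 0.5713 to 47.42 ± 2.19 CPM (1.08, adjusted p = 2.3e-06). Gm12185, Gm4841, F830016B08Rik and Irgc1 had log2 fold changes of 1.49, 1.75, 0.92 and 2.12, the last at 0.4265 CPM in the WT and 1.847 CPM in the AMPK-KO samples. Gm5431 (0.33) and the close copies 9930111J21Rik1 (0.55) and 9930111J21Rik2 (0.51) passed by less, at adjusted p of 0.018, 0.0363 and 0.0223, and their calls were lost (adjusted p of 0.057 to 0.167) when WT replicate 2 or 3 or AMPK-KO replicate 1 or 2 was left out, so that the count of the family ranged from 6 to 9. Both copies had 1 AMPK-KO sample within the WT range, and 9930111J21Rik1 did not pass with DESeq2 either (adjusted p = 0.0891). Irgq, a distant relative, was at 16.74 ± 1.855 and 15.95 ± 0.6323 CPM (-0.07 on the log2 scale, adjusted p = 0.695). In the late-stage samples 3 of the 10 were lower, Gm12185 (-1.14, adjusted p = 9.7e-04), Gm5431 (-0.73, 8.5e-03) and Gm12250 (-0.50, 0.0487), and 7 did not pass. Among all genes tested, 4.88% passed as lower there. Gm12250 lost its call (adjusted p of 0.0785 to 0.182) without early-stage replicate 2 or 3 or any 1 of the late-stage samples and did not pass with RLE scaling (0.0513) or without the low-count filter (0.122), and without late-stage replicate 2 only 1 of the 10, Gm12185, was called.

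Upstream of the IRGs stand interferon-γ, its receptor, the JAK kinases and transcription factors such as IRF1. Of 22 listed interferon receptor and signaling genes, 16 were higher in AMPK-KO TAMs and 6 did not pass, with a median log2 fold change of 0.40. The share of all genes tested that passed as higher was 11.3%. Ifng, the ligand, was low throughout and rose from 2.825 ± 0.8143 to 9.58 ± 0.6743 CPM (1.76 on the log2 scale, adjusted p = 1.5e-04 by edgeR). NK cell markers and most T cell markers were higher in these samples as well, and which cells gave the Ifng reads was not tested. Irf1 rose from 143.6 ± 1.259 to 298.8 ± 11.11 CPM (1.06, adjusted p = 3.3e-07). Ifngr1, the ligand-binding receptor chain, rose by less (0.37, adjusted p = 2.4e-04), and Jak2 by 0.53 (adjusted p = 2.4e-04). Among the genes that interferon-γ induces as feedback or as transcriptional partners, Socs1, an inhibitor of JAK kinases, rose by 1.50 (adjusted p = 3.1e-06), and Batf2 by 1.05 (adjusted p = 3.4e-06). On the type I interferon side, Stat2 (0.46, adjusted p = 2.3e-04), Tyk2 (0.40, 1.2e-03), Irf7 (0.38, 1.8e-04) and Irf9 (0.20, 0.0222) were higher. Irf9 did not pass without WT replicate 3 or AMPK-KO replicate 1 or 2. Ifnb1, a type I interferon, stood at -0.29 (adjusted p = 0.465). Usp18, a target and brake of type I interferon signaling, stood at 0.05 (adjusted p = 0.602) on the same scale. Also short of the threshold were Ifngr2 (0.16, adjusted p = 0.0854), Jak1 (0.11, 0.231), Ifnar1 (0.18, 0.0564) and Ifnar2 (-0.00, 0.995). These genes that did not pass were named after their values were seen.

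Over all genes tested, 4.31% passed as higher and 4.88% as lower in the late-stage samples. Of the 22 signaling genes 1 was higher, 3 were lower and 18 did not pass. The total of 4 called ranged from 0 to 7 when 1 library was left out. Ifng was the higher one, at 7.372 ± 0.4093 CPM in the early-stage and 10.45 ± 0.2829 CPM in the late-stage samples (log2 fold change 0.50, adjusted p = 0.0274 by edgeR), so that it and the members moved in opposite directions there. That call was lost (adjusted p of 0.0708 to 0.12) without early-stage replicate 2 or any 1 of the late-stage samples. Ifngr1 (-0.24, adjusted p = 0.0474), Usp18 (-0.33, 0.026) and Ptpn2, a phosphatase that acts on JAK kinases (-0.29, 0.0486), were the lower ones, and each lost its call without early-stage replicate 2 or any 1 of the late-stage samples, Ptpn2 also without early-stage replicate 1 or 3. Irf1, at 193.6 ± 32.06 and 165.6 ± 12.61 CPM, did not pass at -0.23 on the log2 scale (adjusted p = 0.271), while it passed at -0.34 (adjusted p = 0.0397) without early-stage replicate 3.

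The guanylate-binding proteins (GBPs), larger interferon-induced GTPases that act with the IRGs at pathogen vacuoles, were higher in AMPK-KO TAMs for 11 of 11 listed genes, with a median log2 fold change of 1.20. Of all genes tested, 11.3% were called higher. Gbp2b (2.34, adjusted p = 3.0e-08 by edgeR) and Gbp4 (1.93, adjusted p = 4.3e-08) had values above those of all 7 members. So did Gbp11 (2.41, from 0.3493 to 1.881 CPM), Gbp8 (1.68), Gbp10 (1.37), Gbp2 (1.20) and Gbp5 (1.15). Gbp3, Gbp6, Gbp7 and Gbp9 did not, and these differences were not tested. Of all genes tested, 4.88% were called lower in the late-stage samples. Of the 11 GBPs 3 were lower there, Gbp2b (-1.11, adjusted p = 7.6e-04), Gbp4 (-0.48, 0.0155) and Gbp5 (-0.34, 0.0306), and 8 did not pass. Leaving out early-stage replicate 2 or late-stage replicate 2 or 3 left 1, and leaving out early-stage replicate 1 gave 6. The call of Gbp5 was also lost without the low-count filter (adjusted p = 0.0588).

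A further list holds ubiquitin-like conjugation and adaptor genes that place IRGs on vacuoles or act with them there. Of its 14 genes, 2 were higher, 2 lower and 10 did not pass in AMPK-KO TAMs, with a median log2 fold change of -0.05. Among all genes tested, 11.3% passed as higher and 9.78% as lower. Sqstm1 (p62), a ubiquitin adaptor of autophagy, fell from 783.8 ± 20.73 to 480.7 ± 12.68 CPM (-0.71 on the log2 scale, adjusted p = 2.0e-06 by edgeR), and Gabarapl1, an ATG8 family protein, by 0.39 (adjusted p = 1.2e-03). Trim21, a ubiquitin ligase, rose by 0.42 (adjusted p = 5.0e-03), and Ubd by 2.07 (adjusted p = 0.0314) at under 1 CPM in both groups, a call that was lost without WT replicate 2 or 3 or any 1 of the AMPK-KO samples. Between the stages, where 4.88% of all genes tested passed as lower, 1 of the 14 passed, Sqstm1 (-0.33, adjusted p = 0.0474). Its call was lost without any 1 of the samples except early-stage replicate 3. That total ranged from 0 to 2. The list median between the stages was -0.18, and 7 of the 14 had every late-stage sample below every early-stage sample, beside 15.6% of all genes.

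**Figure D4:**
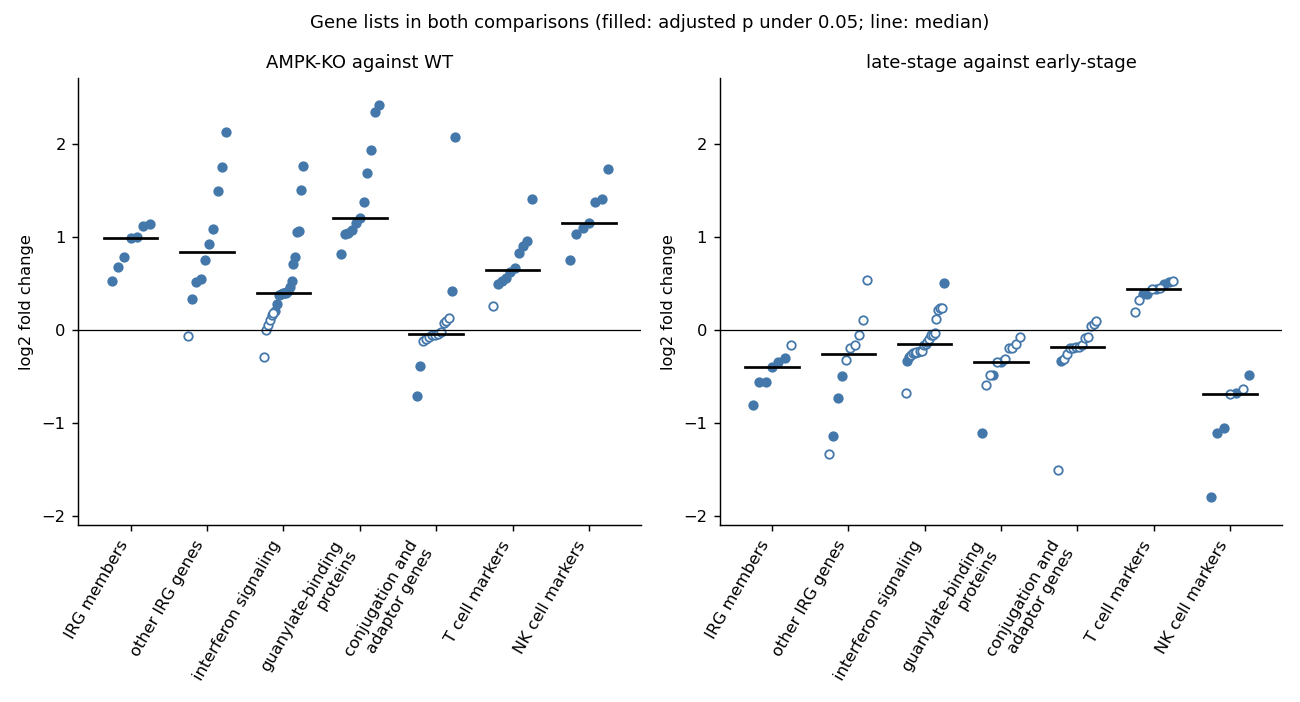
Log2 fold changes (vertical axis) of single genes (points, filled where the adjusted p was under 0.05) and list medians (lines), AMPK-KO against WT on the left and late-stage against early-stage on the right. The medians of the IRG members and of the GBPs are 0.99 and 1.20 on the left and -0.40 and -0.34 on the right, while those of the T cell and NK cell markers are 0.64 and 1.15 on the left and 0.44 and -0.69 on the right.

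Markers of other cells moved with the groups. Of all genes tested, 11.3% were higher and 9.78% lower in the AMPK-KO samples. The shares in the late-stage samples were 4.31% higher and 4.88% lower. In the AMPK-KO samples 7 of 7 natural killer (NK) cell markers were higher, with summed levels of 50.62 to 60.12 CPM in WT and 136.1 to 142.6 CPM in AMPK-KO samples, and so were 9 of 10 T cell markers (135.9 to 152.2 against 238.9 to 246.8 CPM) and 7 of 7 markers of conventional dendritic cells (73.34 to 79.24 against 131.6 to 138.1 CPM). Of 4 neutrophil markers that could be tested 3 were higher (sums of 17.62 to 19.81 against 28.69 to 29.91 CPM), with Ly6g and Ngp at 0 in all of these samples. The melanoma markers were lower for 6 of 7 (998 to 999.4 against 676.1 to 715.9 CPM). B cell markers were lower for 4 of 5 and higher for 1 (30.92 to 32.46 against 19.87 to 22.07 CPM), and the macrophage markers higher for 2 and lower for 3 of 12 (18083 to 20190 against 16640 to 17283 CPM). In the late-stage samples NK cell markers were lower for 5 of 7 (125.7 to 140.6 CPM in early-stage against 63.36 to 78.6 CPM in late-stage samples), T cell markers higher for 5 of 10 (223.8 to 237 against 277 to 323.1 CPM), B cell markers higher for 3 of 5 (37.28 to 41.83 against 57.51 to 82.92 CPM) and dendritic cell markers lower for 2 of 7 (80.48 to 85.62 against 75.79 to 81.26 CPM). Melanoma markers were lower for 5 of 7 (1663 to 1807 against 766.7 to 1203 CPM), neutrophil markers for 2 of 3 tested (43.4 to 50.78 against 30.33 to 41.87 CPM), and macrophage markers were higher for 1 and lower for 2 of 12 (14707 to 19047 against 16588 to 16642 CPM). The part of these cells in the differences of the IRGs, of Ifng and of the other signaling genes was not tested.

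The genes outside the family whose pattern was nearest to the mean member profile over the 12 samples were found by the root mean square difference in log2 CPM, each gene being centred within its table. Of 16812 genes, with a median difference of 0.433, the nearest was Samhd1 at 0.062, a phosphohydrolase that removes deoxynucleotides. It was at 592.6 CPM in WT, 998.9 in AMPK-KO, 675.7 in early-stage and 519.5 in late-stage samples. After it came Fgl2 (0.077), Cd274 (0.091), which encodes the checkpoint ligand PD-L1, Plbd1 (0.091), Ms4a4b (0.094), Dusp16 (0.096), Naaa (0.097), Csf2rb (0.099), Pde4b (0.10) and Rab11fip1 (0.103). Cd274 was at 205.6 CPM in WT and 335.6 in AMPK-KO samples and at 268.6 CPM in early-stage and 196.2 in late-stage samples. The members themselves lay between 0.057 (Tgtp2) and 0.163 (Tgtp1) from their own mean, and Iigp1 (0.140) and Irgm1 (0.139) lay farther from it than all 10 of these genes. The profiles share the 12 libraries, and most of their variation is between the groups.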

How the data were processed

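Bulk RNA-seq of TAMs was analysed in 4 groups of 3 samples. The authors deposited raw counts per gene, not normalized, in 1 table per comparison, made per the methods with HISAT2 and featureCounts, and the submitters' processing notes name FastQC, HISAT2, featureCounts, DESeq2, mm10 and GRCm38. The methods write GRCh38, but 54349 of 55401 identifiers match GENCODE M21 (GRCm38) with their version. Tool versions, strand and the treatment of multiply mapped reads are not given in the sources used here. Nothing says that samples of a group came from separate mice, so p-values measure the spread between these samples, which may be technical. No pair of replicates agreed within sampling noise.

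Each table was fitted on its own with edgeR 4.0.16 (filterByExpr, TMM, glmQLFit, glmQLFTest) in R 4.3.3, and adjusted p-values are Benjamini-Hochberg values over all genes tested. CPM use TMM-scaled library sizes. The test was checked on simulated data. Ratios were compared by two-sided exact permutation tests (SciPy 1.17.1), without adjustment over the 6 computed. The 13 alternatives per comparison were DESeq2 1.42.0, RLE factors, upper-quartile factors, no low-count filter, at least 10 counts in every library, the replicate number as a block, each library left out in turn, and Tgtp1 and Tgtp2 summed. Named were all members and family genes, the 10 genes most alike and some, not all, of the listed genes past an adjusted p of 0.05. Ifnb1, Usp18, Ifngr2, Jak1, Ifnar1, Ifnar2 and Irf1 were added outside that rule, after their values were seen, where they did not pass. A listed signaling gene is not reported here. The members and lists were chosen with earlier results of these data known.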

Additional observations from a re-analysis of the deposited data

How the results depend on the processing

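In AMPK-KO against WT, the 7 members kept their direction and their call under each alternative in which they have a value (13 each, and 12 for Tgtp2, which has no value of its own where both copies are summed), with the highest adjusted p at 1.4e-03 (Irgm1 without WT replicate 3), and the genes called there ranged from 2414 to 4039 over the left-out libraries, beside 3693. In late-stage against early-stage, the members called ranged from 3 to 6, with log2 fold changes of -0.33 to -0.25 for Igtp, -0.41 to -0.26 for Irgm2 and -0.44 to -0.35 for Ifi47. Without the low-count filter Igtp (-0.30, adjusted p = 0.0512 by edgeR) and Irgm2 (-0.36, 0.0872) did not pass, and the genes called fell from 1619 to 936, the interferon signaling genes to 1 and the conjugation genes to 0. With the replicate number as a block, Igtp (-0.29, adjusted p = 0.053 by edgeR) and Irgm2 (-0.35, 0.0642) did not pass either, 4 members stayed called, Gm12250 (-0.49, 0.0694) and Gbp5 (-0.34, 0.0568) lost their calls, and the interferon signaling and conjugation genes called fell to 0 and 0. The numbers do not pair the samples (correlations of deviations from -0.0039 to 0.0423, with the best match to the own number for 2 of 3 and 0 of 3 samples). DESeq2 called 2467 genes, 8 interferon signaling genes, 5 GBPs and 3 conjugation genes, and the conjugation count was 2 with upper-quartile factors and 2 with at least 10 counts in every library. Over the left-out libraries the genes called ranged from 653 to 2835, the other IRG family genes from 1 to 3, the interferon signaling genes from 0 to 7, the GBPs from 1 to 6 and the conjugation genes from 0 to 2. Fold changes near 0 turned sign there for 9930111J21Rik1 (-0.31 to 0.01), 9930111J21Rik2 (-0.35 to 0.01) and Irgq (-0.13 to 0.02). The causes of these shifts were not tested. At these depths every member had at least 3384 counts per sample.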

Other observations

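Of the 17 IRG family genes listed, 11 lie on chromosome 11, 4 on chromosome 18 and 2, Irgc1 and Irgq, on chromosome 7, and after the values had been seen the stage comparison was read by chromosome. None of the 4 genes on chromosome 18 passed the edgeR test between the stages, with log2 fold changes of -0.16 for Iigp1 (adjusted p = 0.338), 0.11 for Gm4951 (0.577), 0.54 for F830016B08Rik (0.264) and -0.32 for Gm4841 (0.602). Of the 11 on chromosome 11, 9 were lower and 2 did not pass, 9930111J21Rik1 (-0.16, adjusted p = 0.614) and 9930111J21Rik2 (-0.19, 0.542), where 4.88% of all genes tested were lower. These 9 fell to 4 without late-stage replicate 2, to 6 without early-stage replicate 2 or late-stage replicate 1 or 3, to 6 without the low-count filter and to 6 with the replicate number as a block. Irgc1 (-1.33, adjusted p = 0.125) and Irgq (-0.05, 0.833) did not pass. F830016B08Rik and Gm4841 stood at 1.811 to 2.628 CPM on average, where the intervals are wide. In AMPK-KO against WT the 15 genes of chromosomes 11 and 18 were higher, where 11.3% of all genes tested passed as higher. Of these, Gm5431, 9930111J21Rik1 and 9930111J21Rik2 lost their calls when WT replicate 2 or 3 or AMPK-KO replicate 1 or 2 was left out. A difference between the chromosomes was not tested, and close copies on chromosome 11 may share reads.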
